A study of Mus musculus with 36 samples.

Results

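The 10 genes described here build and maintain the muscle side of the neuromuscular junction: the acetylcholine receptor subunit genes Chrna1, Chrnb1, Chrnd, Chrne and Chrng, the receptor clustering genes Musk, Lrp4, Dok7 and Rapsn, and the acetylcholinesterase gene Ache. They were taken by symbol from the 21156 genes of the deposited table, and all 10 were present and had enough reads to be tested. The neuromuscular junction is the synapse at which a motor nerve ending releases acetylcholine onto a muscle fibre. The nerve releases agrin, which binds Lrp4 and activates the kinase Musk, and Dok7 and Rapsn then carry that signal to the receptors and hold them in dense clusters. Muscle that has lost its nerve supply is known to transcribe receptor genes along the whole fibre, including Chrng, the subunit of the fetal receptor that Chrne replaces in innervated adult muscle.

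The study asked how the soleus, a slow postural muscle of the calf, responds to disuse and renewed use at 2 ages. All mice were male C57BL/6J on standard chow, killed after a short fast, with 1 mouse per library. Old mice, 22 to 24 months of age, formed 3 groups: 4 were reloaded for 3 days after 10 days of hind limb unloading, 6 were killed at the end of 10 days of unloading, and 9 were controls kept under normal load. Young mice, 6 months of age, formed the same 3 groups with 4, 4 and 9 animals. Whole muscle RNA was sequenced after removal of ribosomal RNA.

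Libraries held 32.0 to 37.9 M reads. The number of reads for a gene of this set in a library ran from 3, for Chrng, to 5698, for Musk. Of all genes, 15031 were tested. The 8 markers of slow and general muscle fibres, among them Myh7 and Tnnt1, summed to between 42110 and 66080 CPM (counts per M reads) in every library. Of 10 markers of motor axons 8 were in the table and 2, Prph and Uchl1, had enough reads to be tested. In old controls Chat, the gene for the enzyme that makes acetylcholine, stood at 0 to 0.0294 CPM and Uchl1, a ubiquitin hydrolase of neurons, at 15.8 to 29.1 CPM. In RNA of whole muscle, fewer synapses or cells of a type and less RNA from each cannot be told apart. In 6 libraries Alb, a liver gene, lay above 20 CPM: old reloading mice 2 and 4, old unloading mouse 6, young reloading mice 1 and 2 and young unloading mouse 2. Where leaving them out changed a call named here, this is said beside it.

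RefSeq held a promoter window for 7 of the 10 genes, from 250 bases before to 50 bases after the start of the transcript (build GRCm38.p6, the mm10 assembly that the submitters' processing notes name). The windows of 4 subunit genes are shown because these genes differed in what load and age did to them. Capitals mark the E box CANNTG, a motif of muscle transcription factors such as myogenin, and CCGGAA, the N box described in synaptic genes and read by ETS factors. The Chrna1 window lies at chr2:73580289-73580588 on the minus strand, the Chrng window at chr1:87205561-87205860 on the plus strand, the Chrne window at chr11:70619145-70619444 on the minus strand and the Chrnb1 window at chr11:69795888-69796187 on the minus strand.
Chrna1: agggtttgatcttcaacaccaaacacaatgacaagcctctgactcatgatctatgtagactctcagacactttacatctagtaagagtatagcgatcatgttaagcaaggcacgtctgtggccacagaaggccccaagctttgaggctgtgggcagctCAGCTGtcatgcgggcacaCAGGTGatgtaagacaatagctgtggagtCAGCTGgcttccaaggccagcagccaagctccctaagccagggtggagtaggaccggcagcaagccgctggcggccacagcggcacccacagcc
Chrng: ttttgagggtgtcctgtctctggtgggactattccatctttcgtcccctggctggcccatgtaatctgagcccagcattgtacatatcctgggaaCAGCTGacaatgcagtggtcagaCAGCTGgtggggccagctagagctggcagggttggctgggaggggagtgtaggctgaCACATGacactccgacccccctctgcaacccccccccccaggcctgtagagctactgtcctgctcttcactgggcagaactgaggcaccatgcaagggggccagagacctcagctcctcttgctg
Chrne: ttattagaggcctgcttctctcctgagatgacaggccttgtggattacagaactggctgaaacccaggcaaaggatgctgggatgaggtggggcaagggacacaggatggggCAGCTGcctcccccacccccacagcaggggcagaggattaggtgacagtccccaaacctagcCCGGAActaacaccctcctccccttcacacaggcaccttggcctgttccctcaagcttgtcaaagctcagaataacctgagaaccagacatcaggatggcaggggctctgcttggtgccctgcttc
Chrnb1: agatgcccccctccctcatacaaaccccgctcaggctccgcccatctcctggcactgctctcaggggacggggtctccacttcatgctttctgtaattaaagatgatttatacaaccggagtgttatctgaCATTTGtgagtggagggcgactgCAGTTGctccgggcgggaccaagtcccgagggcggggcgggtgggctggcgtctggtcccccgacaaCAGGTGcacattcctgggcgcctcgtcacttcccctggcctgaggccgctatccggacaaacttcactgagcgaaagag
The Chrna1 and Chrng windows each hold 3 E boxes, of which 2 have the form CAGCTG. The Chrne window holds 1 CAGCTG and 1 CCGGAA, which spans bases -76 to -71 from the start, and the Chrnb1 window holds 3 E boxes and no CAGCTG. The window of Musk holds 3 E boxes, that of Ache 1, and the first of the windows listed for Dok7 1. Both strands were searched, and every CAGCTG is also a CANNTG. Among 32851 mouse promoter windows of the same length, 72.3% hold at least 1 CANNTG and 17.6% at least 3. Of the same windows 16.3% hold at least 1 CAGCTG and 1.9% at least 2, and 14.9% hold CCGGAA. A match in these windows describes letters and does not show that a factor binds there.

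The genes lie on 5 chromosomes of the mm10 build. Chrnd (chr1:87190597-87200070) and Chrng (chr1:87205811-87211835) are neighbours on the plus strand of chromosome 1, with 5740 bases between them. Chrna1 (chr2:73563281-73580338), Rapsn (chr2:91035472-91045729) and Lrp4 (chr2:91457456-91513901) are on chromosome 2, and Chrnb1 (chr11:69784036-69795966) and Chrne (chr11:70614883-70619213) on chromosome 11. Musk is at chr4:58285729-58377848, Dok7 at chr5:35056571-35087839 and Ache at chr5:137288247-137294466. Exons of Ache share 98 bases with a predicted gene on the opposite strand and those of Rapsn share 4, and the sources used here do not say whether reads were counted by strand.

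Per length of transcript, Musk was the most abundant of the 10 genes on average in all 6 groups and Chrng the least. In young controls Musk averaged 13.0 ± 0.936 RPKM (SD, n = 9; reads scaled by transcript length in kilobases and by library depth in M), with Rapsn next at 6.88 ± 0.684 RPKM and no overlap between these neighbours. Rapsn, Chrna1, Chrnb1, Lrp4, Dok7, Ache and Chrne followed one another there with ranges that overlapped from each gene to the next. Chrnd at 1.26 ± 0.208 RPKM and Chrng at 0.106 ± 0.105 RPKM stood apart below them. In old controls the neighbours in this order overlapped at every step but that between Lrp4 and Dok7, and Chrng averaged 1.35 ± 1.97 RPKM (SD, n = 9). Reloading moved Chrnb1 to the second place at both ages, with 16.5 ± 1.63 RPKM in old and 12.8 ± 0.444 RPKM in young reloaded muscle (SD, n = 4 each).

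**Figure D1:**
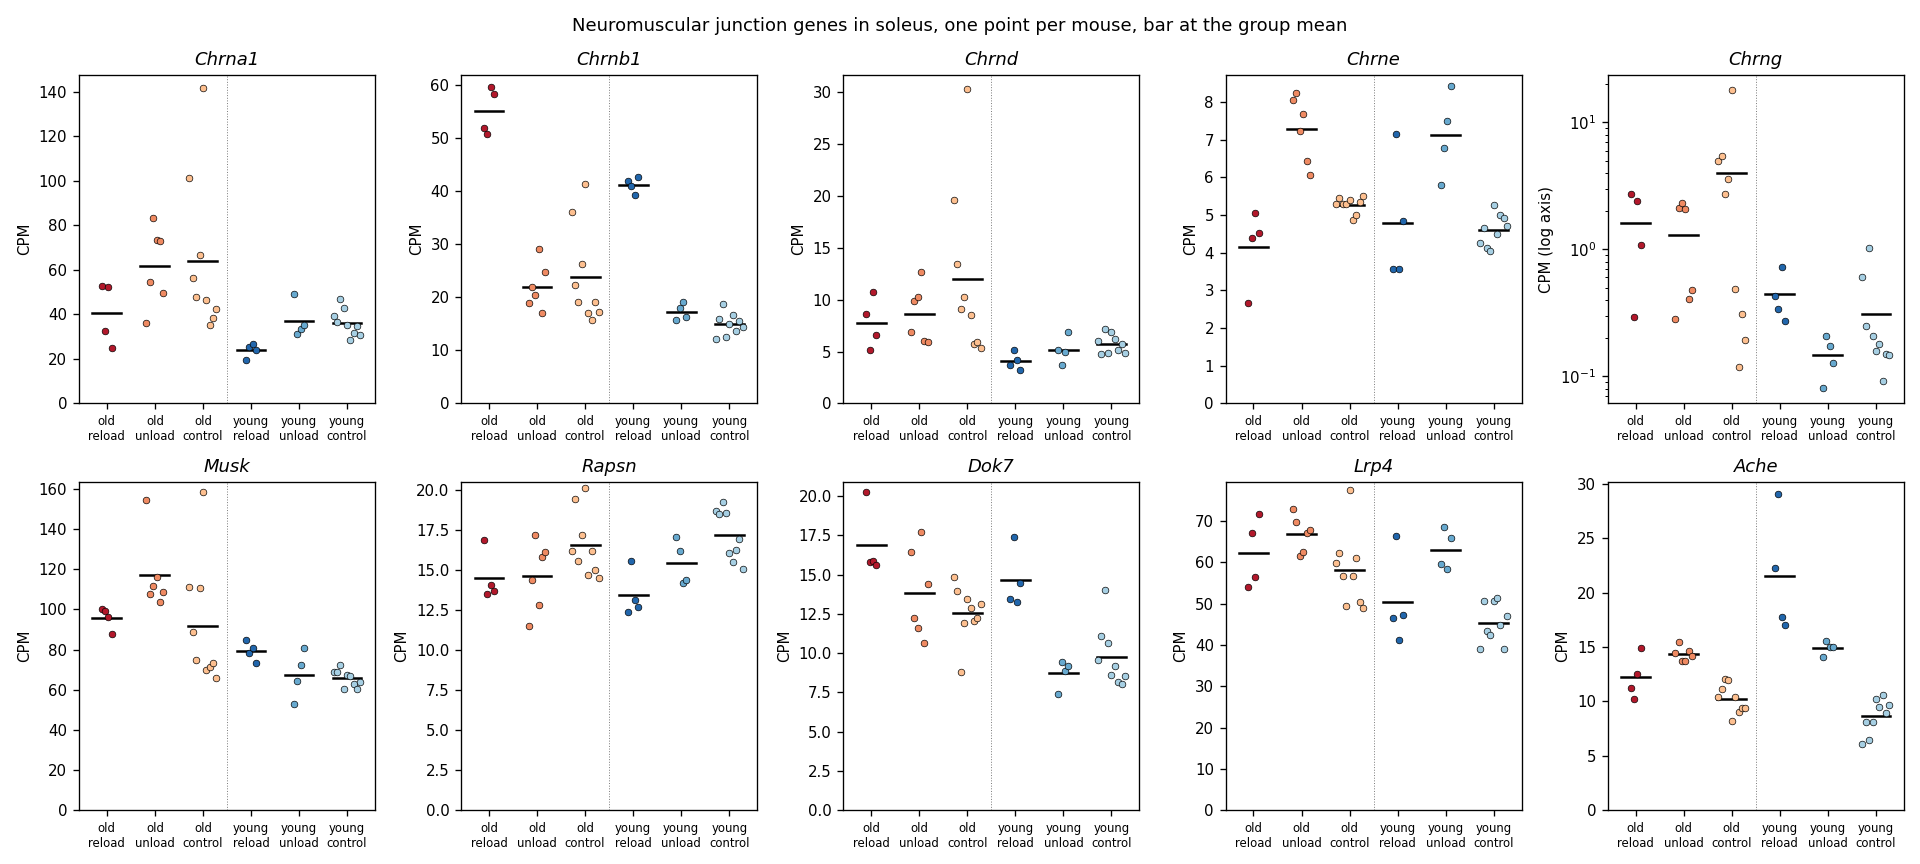
CPM of the 10 genes in each of the 36 libraries by group, 1 point per mouse with a bar at the group mean; the axis of Chrng is logarithmic and the other axes are linear and start at 0. Chrnb1 was higher in all reloaded mice than in any unloaded or control mouse of the same age, and single old controls stood far above the rest for Chrna1, Chrnd, Chrng and Musk.

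Old control soleus held more transcript than young control soleus for 7 of the 10 genes, and less for 0. The 7 were 4 receptor subunit genes (Chrna1, Chrnb1, Chrnd and Chrng) and 3 clustering genes (Musk, Dok7 and Lrp4), whereas the adult subunit gene Chrne, Rapsn and Ache were not called. Of all genes tested, 23.7% were called in this comparison (12.1% higher and 11.6% lower), at an adjusted p under 0.05 by edgeR's quasi-likelihood test with Benjamini-Hochberg adjustment. The median log2 fold change of the 10 genes was 0.42, against 0.01 for all genes tested. The 10 genes were chosen with earlier results of these data known, so these figures are no independent test. For all 10 genes the values of old and young controls overlapped, and the share of all genes that did so was not counted.

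Chrng, the fetal subunit, showed the largest difference. It had 4.93, 5.47, 2.74, 3.57, 18.1, 0.484, 0.117, 0.310 and 0.192 CPM in old controls 1 to 9, against a lowest value of 0.0919, a median of 0.179 and a highest of 1.02 CPM in the 9 young controls. Old controls 1 to 5 lay above every young control, and old controls 6 to 9 lay within the young range. The log2 fold change was 3.65 ± 0.71 (SE, adjusted p = 0.000344, edgeR), and 2.81 ± 0.64 (adjusted p = 0.00197) without old control 5. Young controls split by number as well. Chrng had 0.209 to 1.02 CPM in young controls 1 to 4 and 0.0919 to 0.179 CPM in 5 to 9. Chrna1, Rapsn and Dok7 were likewise higher in 1 to 4, Ache was lower there, and the other genes overlapped. The labels do not say what the mouse numbers stand for. Unloaded and reloaded mice are numbered 1 to 4 or 1 to 6. A difference tied to number cannot be fully told apart from load in comparisons with controls.

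Chrnd, the delta subunit, had a lowest value of 5.31, a median of 9.12 and a highest of 30.4 CPM in old controls, against 4.80, 5.69 and 7.16 CPM in young controls. Of the 9 old controls 6 lay above all young ones, for a log2 fold change of 1.07 ± 0.25 (adjusted p = 0.00205). Chrna1, the alpha subunit that carries most of the acetylcholine binding site, ranged from 35.2 to 141.6 CPM around a median of 47.8 CPM in old controls, and from 28.4 to 47.1 CPM around 35.3 CPM in young controls. It rose by 0.82 ± 0.21 on the log2 scale (adjusted p = 0.00474), with 5 of 9 old controls above all young ones. Chrnb1, the beta subunit through which rapsyn and the receptor are linked, ranged from 15.8 to 41.3 CPM around 19.2 CPM in old controls and from 12.0 to 18.8 CPM around 14.9 CPM in young controls. Its log2 fold change was 0.67 ± 0.14 (adjusted p = 0.000713).

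Chrne behaved unlike the other subunit genes in its spread. It lay between 4.87 and 5.50 CPM in the 9 old controls, with a median of 5.31 CPM, and between 4.04 and 5.27 CPM with a median of 4.66 CPM in young controls. The difference of 0.19 ± 0.11 was not called (adjusted p = 0.196, edgeR), although 7 of 9 old controls lay above all young ones; with only the control groups in the fit it was called (0.19, adjusted p = 0.0162).

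Among the clustering genes, Musk, the kinase of the agrin pathway, ranged from 65.8 to 158.4 CPM around 74.6 CPM in old controls and from 60.5 to 72.4 CPM around 66.6 CPM in young controls. Its log2 fold change of 0.48 ± 0.12 (adjusted p = 0.00357) was not called when its most abundant transcript alone was counted (0.46, adjusted p = 0.0686). Dok7, the adaptor that activates Musk from inside the fibre, rose by 0.36 ± 0.11 (adjusted p = 0.0116), a call that was lost with controls 1 to 6 only (0.26, adjusted p = 0.160). Lrp4, the agrin receptor, rose by 0.36 ± 0.08 (adjusted p = 0.00223), with 6 of 9 old controls above all young ones. Rapsn, which encodes the scaffold beneath the receptors, averaged 16.5 ± 2.01 CPM in old and 17.2 ± 1.56 CPM in young controls (SD, n = 9 each). Ache, which encodes the enzyme that breaks down acetylcholine, averaged 10.2 ± 1.34 CPM in old and 8.63 ± 1.59 CPM in young controls (SD, n = 9 each; adjusted p = 0.0759), and was called without young control 7 (0.29, adjusted p = 0.0415), with controls 1 to 6 alone (0.40, adjusted p = 0.0201) and in the fit without the libraries with Alb above 20 CPM (0.24, adjusted p = 0.0417).

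**Figure D2:**
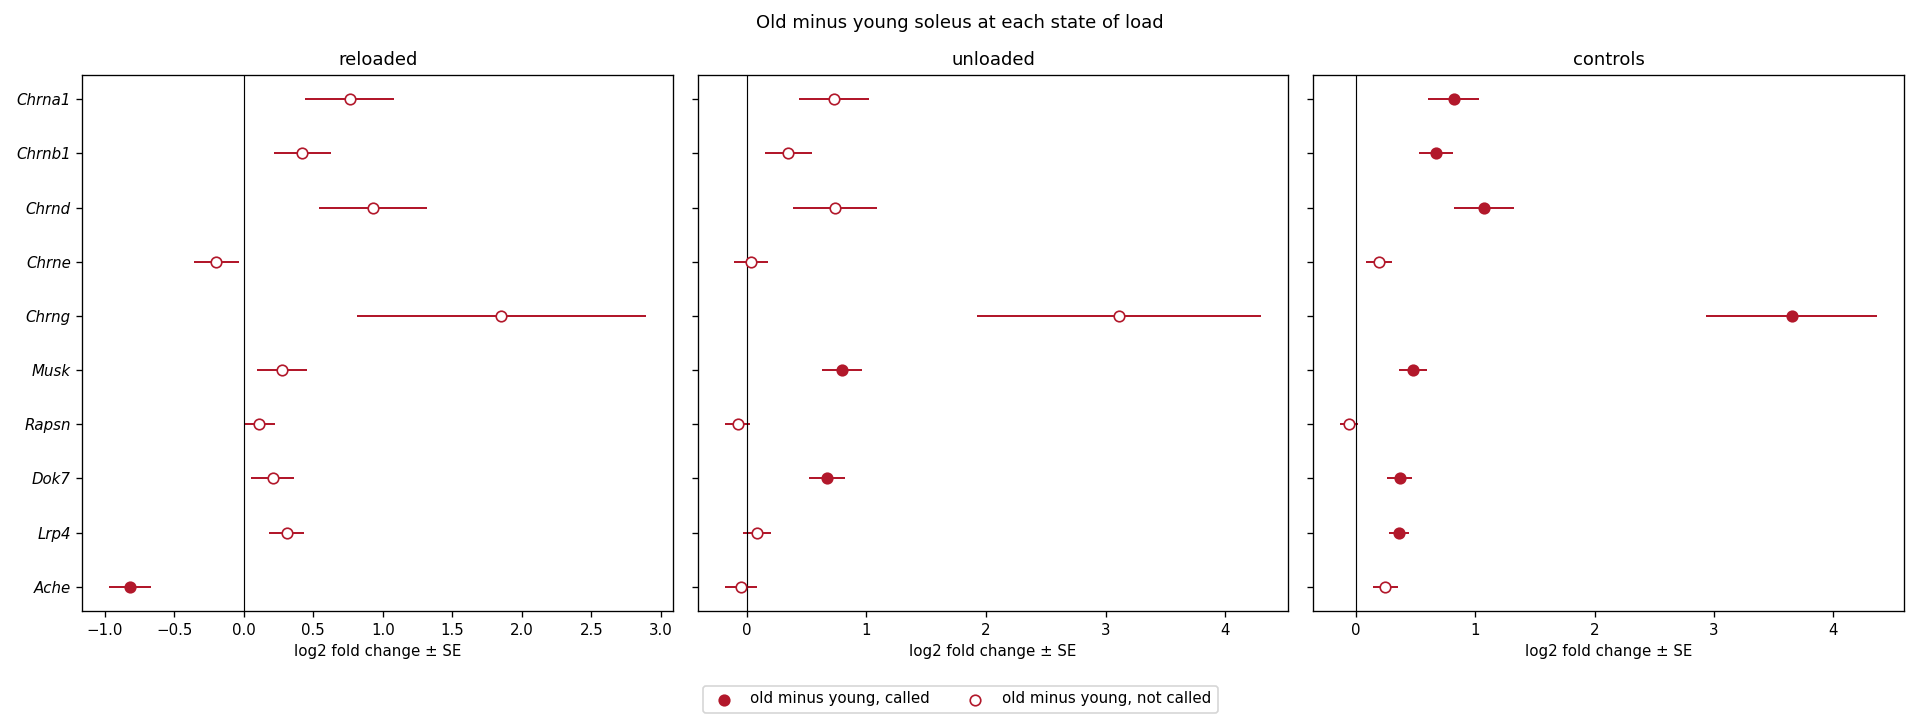
Log2 fold change with its SE of old against young soleus for the 10 genes, in reloaded, unloaded and control muscle; filled points were called at an adjusted p under 0.05 by edgeR. In reloaded muscle Ache alone is filled and lies left of 0, in unloaded muscle Musk and Dok7 are filled, and in controls 7 genes are filled and lie right of 0.

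Old controls differed widely among themselves for Chrng, Chrnd and Chrna1. The same mouse, old control 5, had the highest value of the 9 for 7 of the 10 genes, and the lowest value for Ache. Old control 1 came second to it for Chrna1, Chrnb1, Chrnd and Musk. The highest old control exceeded the lowest 154-fold for Chrng, 5.72-fold for Chrnd, 4.02-fold for Chrna1 and 1.13-fold for Chrne, whereas among young controls these ratios were 11.1, 1.49, 1.66 and 1.31.

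The SD of log2 CPM over the 9 old and the 9 young controls was 2.36 and 0.914 for Chrng, 0.849 and 0.222 for Chrnd, 0.670 and 0.231 for Chrna1 and 0.425 and 0.0887 for Musk. For Chrne it was 0.0563 in old and 0.129 in young controls. The spread among old controls was also chosen for testing with earlier results of these data known. An exact two-sided permutation test of the mean distance from the group median gave unadjusted p = 0.0140 for Chrnd, 0.0244 for Chrng, 0.0342 for Chrne and 0.0455 for Musk (n = 9 and 9). After Benjamini-Hochberg adjustment over the 10 genes 0 were called, with adjusted p = 0.114 for each of these 4 genes. Leaving out any 1 of the 9 young controls also gave 0 calls, whereas leaving out any 1 of the 9 old controls gave between 1 and 4. In a group of odd size 1 mouse is the median and has distance 0, and in a group of even size none need have. Leaving out a mouse on 1 side therefore changes the test itself, and these calls cannot be credited to single mice. Without old control 3 the 4 called were Musk (adjusted p = 0.00247), Chrng (0.00535), Chrnd (0.00864) and Chrna1 (0.0384). Without old control 6 the 4 were Chrna1, Chrnd, Chrne and Musk, without old control 4 Chrnd and Chrng, without 1, 2 or 5 Chrng, and without 7, 8 or 9 Musk.

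**Figure D3:**
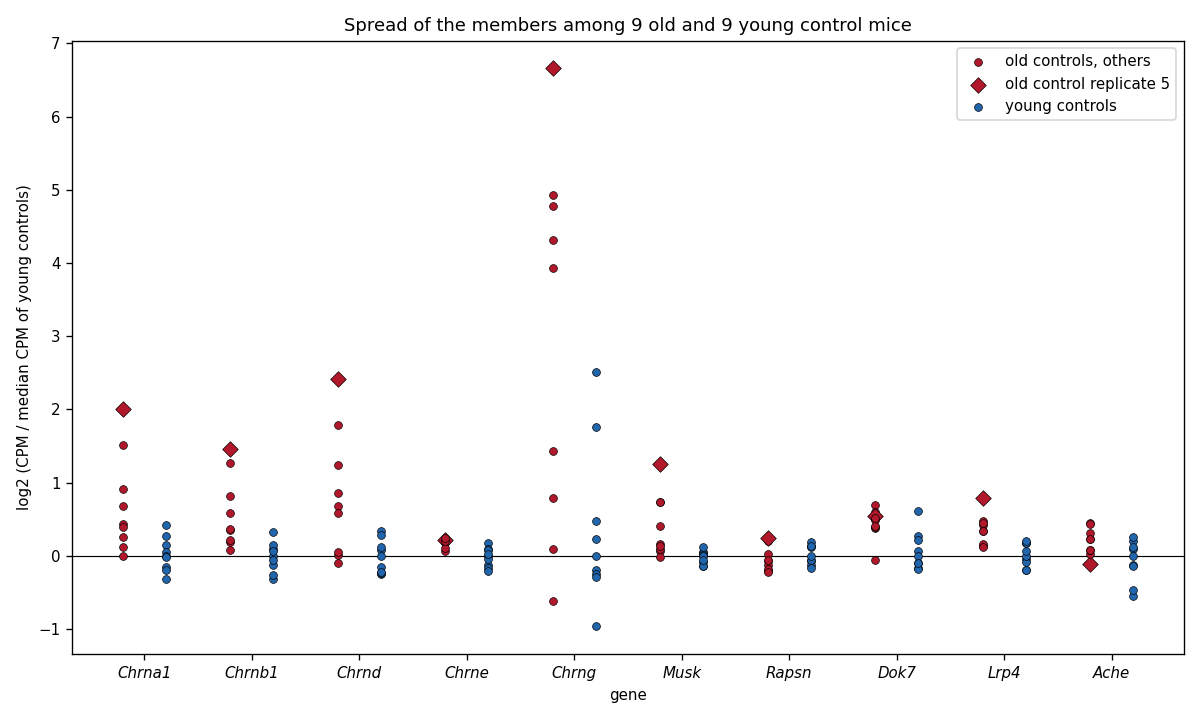
Log2 ratio of CPM to the median of the young controls for each gene in the 9 old and 9 young controls, 1 point per mouse, with old control 5 drawn as a diamond. Old control 5 is the highest for 7 genes and the lowest old control for Ache, and the old controls of Chrne lie closer together than the young ones.

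Genes known to respond to loss of the nerve were read beside these values. The list of 12 such genes was chosen with earlier results of these data known. Of the 12, 9 were higher in old than in young controls and 0 lower, where 12.1% of all genes were higher and 11.6% lower. The median log2 fold change was 1.13, against 0.01 for all genes. The count takes no account of the direction in which each gene is known to respond. The 9 included Hdac9 (0.53 ± 0.11), and Dach2, a repressor of that response, was not called (-0.02 ± 0.09). Among those with the smallest p, the growth arrest gene Gadd45a rose by 3.11 ± 0.56, the transcription factor gene Runx1 by 1.92 ± 0.40 and the cell cycle inhibitor gene Cdkn1a by 1.57 ± 0.31. Their summed level was 888, 481, 389, 603, 1001, 374, 287, 363 and 316 CPM in old controls 1 to 9, against 198 to 479 CPM with a median of 226 CPM in young controls. It was highest in old controls 5, 1 and 4. Myog, which encodes the E box factor myogenin, had 24.3 CPM in old control 1, 19.8 in old control 4, 38.3 in old control 5, and 3.06 to 8.63 CPM in the other old controls. The part of nerve loss in these levels was not tested.

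The 8 Schwann cell markers summed to between 68.0 and 87.7 CPM in old controls, with 79.0 CPM in old control 5. In young controls they summed to between 62.9 and 80.3 CPM. Of the 8, 1 was called higher and 0 lower. Beside this and the counts that follow, 12.1% of all genes were higher and 11.6% lower. Of the 2 motor axon markers tested, Uchl1 rose by 0.60 ± 0.14 (adjusted p = 0.00249, edgeR). Prph had a log2 fold change of -0.36 ± 0.19 and was not called (adjusted p = 0.168). In old controls Chat, Slc5a7, Nefl and Nefh, also of this list, lay at or below 0.0929 CPM. Which cells the Uchl1 reads came from was not tested. The list summed to 27.9, 30.2, 21.5, 22.4, 24.9, 16.6, 17.2, 22.1 and 17.5 CPM in old controls 1 to 9, nearly all of it Uchl1, against 11.1 to 19.7 CPM with a median of 14.8 CPM in young controls. Old controls 1, 2 and 5 were the highest of the 9. All 5 fibroblast markers were lower in old controls, with a median log2 fold change of -0.44 and a summed level of 457 to 776 CPM in old against 922 to 1523 CPM in young controls, which do not overlap. Of the 4 endothelial markers 2 were lower and 0 higher, and of the 8 muscle fibre markers 3 were higher and 2 lower. The part of these markers in the levels of the 10 genes was not tested.

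Of 25 tested partner genes of the junction, a list that was chosen with earlier results of these data known, 3 were higher and 5 lower in old controls, beside the same 12.1% and 11.6% of all genes, with a median of 0.00. Among the 4 with the smallest p, Erbb4, a neuregulin receptor, rose by 0.67 ± 0.14, and Macf1, a linker of microtubules and actin beneath the synapse, by 0.28 ± 0.08. Sntb2, a syntrophin, fell by 0.25 ± 0.06, and Lama4, a laminin of the synaptic basement membrane, fell by 0.22 ± 0.06.

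Chrng and Chrne are alternative subunits of 1 receptor, so their ratio within a library does not depend on scaling. Per length of transcript, Chrng exceeded Chrne in 1 of the 36 libraries, old control 5, with a ratio of 2.78. The median ratio was 0.295 in old reloading, 0.140 in old unloading and 0.428 in old control muscle, and 0.0735, 0.0157 and 0.0329 in the same states of young muscle. Among 9 comparisons of 2 groups by an exact two-sided permutation test on log2 read ratios, 0 were called after Benjamini-Hochberg adjustment. The smallest adjusted p was 0.0857. It was reached for old against young controls (difference of log2 ratios 2.30, unadjusted p = 0.0229, n = 9 and 9), for old against young unloaded muscle (2.56, unadjusted p = 0.0143, n = 6 and 4) and for reloaded against unloaded young muscle (2.11, unadjusted p = 0.0286, n = 4 and 4, the smallest p this design allows). In all, 4 of the 9 comparisons had an unadjusted p under 0.05.

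**Figure D4:**
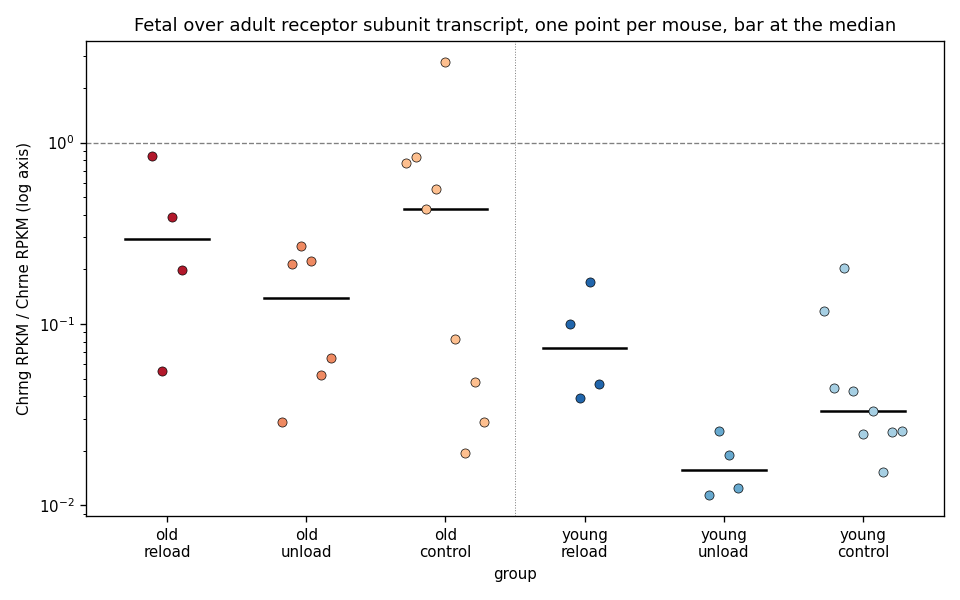
Ratio of Chrng to Chrne RPKM in each library by group on a log axis, 1 point per mouse, a bar at the group median and a dashed line at 1. Old control 5, at 2.78, lies above the line, and the old controls form a wide range down to 0.0194.

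Unloading raised Chrne and Ache at both ages and Lrp4 in young muscle, and lowered 0 of the 10 genes by the test used. Musk was also called in old muscle, a call that several alternatives ended. In old muscle 3 of 10 genes were called, against 42.7% of all genes tested (19.5% higher and 23.2% lower), and in young muscle also 3 of 10, against 40.8% (19.1% higher and 21.7% lower). The median log2 fold change of the 10 genes was 0.04 in old and 0.04 in young muscle, and 0.00 for all genes at both ages.

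Chrne had 8.06, 8.25, 7.23, 7.70, 6.44 and 6.08 CPM in the 6 unloaded old mice, against 4.87 to 5.50 CPM with a median of 5.31 CPM in old controls. In young mice it had 5.79, 6.78, 7.51 and 8.44 CPM after unloading, against 4.04 to 5.27 CPM with a median of 4.66 CPM in controls. All unloaded mice lay above all controls of their age, and the log2 fold changes were 0.47 ± 0.12 (adjusted p = 0.00145) in old and 0.63 ± 0.13 (adjusted p = 0.000251) in young muscle, both by edgeR.

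The other subunit genes were not called after unloading at either age. Chrng had 0.282 to 2.34 CPM in the unloaded old mice, with a median of 1.28 CPM, all within the range of the old controls. Its log2 fold change of -1.63 ± 0.70 (adjusted p = 0.0581) passed the threshold when any 1 of old controls 6 to 9 was left out or when controls 1 to 6 alone were used (-2.18, adjusted p = 0.00473). The log2 fold change of Chrnd was -0.48 ± 0.28 (adjusted p = 0.159), and -0.82 (adjusted p = 0.0126) with controls 1 to 6 alone.

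Among the clustering genes, Lrp4 had 59.6, 68.6, 58.4 and 65.8 CPM in unloaded young mice, against 39.0 to 51.4 CPM with a median of 44.8 CPM in young controls. The groups did not overlap, and the log2 fold change was 0.48 ± 0.11 (adjusted p = 0.000417, edgeR). In old muscle Lrp4 averaged 66.9 ± 4.29 CPM after unloading (n = 6) and 58.1 ± 8.92 CPM in controls (n = 9), a log2 fold change of 0.20 ± 0.09 that was not called (adjusted p = 0.0749) but was without old control 5 (0.27, adjusted p = 0.0118). Musk rose by 0.35 ± 0.13 in old muscle (adjusted p = 0.0290), with unloaded values of 103.7 to 154.5 CPM within the range of the controls. That call was lost without unloaded old mouse 1 (0.26, adjusted p = 0.121) or without any 1 of old controls 3, 6, 7, 8 and 9 (0.30 to 0.32), and with controls 1 to 6 alone the value was 0.20 (adjusted p = 0.270). It was lost as well with only the groups compared in the fit (0.37, adjusted p = 0.0961) and for its most abundant transcript alone (0.41, adjusted p = 0.104).

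Rapsn averaged 14.6 ± 2.16 CPM in unloaded old mice and 16.5 ± 2.01 CPM in old controls (SD, n = 6 and 9). Its log2 fold change of -0.18 ± 0.08 was not called (adjusted p = 0.0904, edgeR), but was without unloaded mouse 3 (-0.23, adjusted p = 0.0370).

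Ache had 14.5, 15.5, 13.7, 13.8, 14.7 and 14.2 CPM in the 6 unloaded old mice, against 8.23 to 12.1 CPM with a median of 10.4 CPM in old controls. In unloaded young mice it had 14.1, 15.5, 15.0 and 15.0 CPM, against 6.11 to 10.6 CPM with a median of 8.90 CPM in young controls. Neither pair of groups overlapped, and the log2 fold changes were 0.49 ± 0.11 in old (adjusted p = 0.000497) and 0.79 ± 0.12 in young muscle (adjusted p = 4.97e-06). Colq, which encodes the collagen tail that anchors acetylcholinesterase in the synaptic cleft, moved the other way: it fell by 1.11 ± 0.19 on the log2 scale in old and by 1.22 ± 0.23 in young muscle.

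Of the 25 partner genes tested, 3 were higher and 6 lower after unloading in old muscle, and 3 were higher and 5 lower in young muscle, with medians of -0.07 and -0.05. Of all genes, 19.5% were higher and 23.2% lower in old muscle, and 19.1% and 21.7% in young muscle. Dnaja3, whose product binds Musk, fell by 0.34 ± 0.05 in old and by 0.48 ± 0.06 in young muscle, and Lama4 by 0.52 ± 0.07 and 0.24 ± 0.08 at the same ages. Etv5, an ETS factor gene, rose by 0.41 ± 0.07 in old muscle. Of the 8 Schwann cell markers, 1 rose in old and 3 in young muscle, and 0 fell; their summed level was 71.2 to 96.1 CPM in unloaded old mice and 72.7 to 82.2 CPM in unloaded young mice.

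Of the 12 genes known to respond to loss of the nerve, 0 were higher and 2 lower after unloading in old muscle. There, 19.5% of all genes were higher and 23.2% lower. In young muscle 2 were higher and 1 lower, where 19.1% and 21.7% of all genes were. The medians of the 12 were -0.40 and -0.16. Dach2, a repressor of that response, fell by 0.33 ± 0.10 in old muscle, a call lost with controls 1 to 6 alone (-0.23, adjusted p = 0.106), and by 0.45 ± 0.12 in young muscle. Myh3 fell by 1.11 ± 0.41 in old muscle, and was not called without any 1 of unloaded mice 4, 5 and 6 or without the libraries with Alb above 20 CPM (-0.98, adjusted p = 0.0749). The histone deacetylase genes Hdac9 and Hdac4 rose by 0.70 ± 0.14 and 0.70 ± 0.24 in young muscle. Of the motor axon markers Prph rose by 0.57 ± 0.20 in old muscle, a call lost without unloaded mouse 1 (0.49, adjusted p = 0.0679) and with controls 1 to 6 alone, and Uchl1 fell by 0.61 ± 0.19 in young muscle, a call lost without unloaded young mouse 2, which is also 1 of the libraries with Alb above 20 CPM (-0.45, adjusted p = 0.0773). Fibroblast markers were lower for 3 and higher for 1 of 5 in old muscle and lower for 3 and higher for 0 in young muscle.

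**Figure D5:**
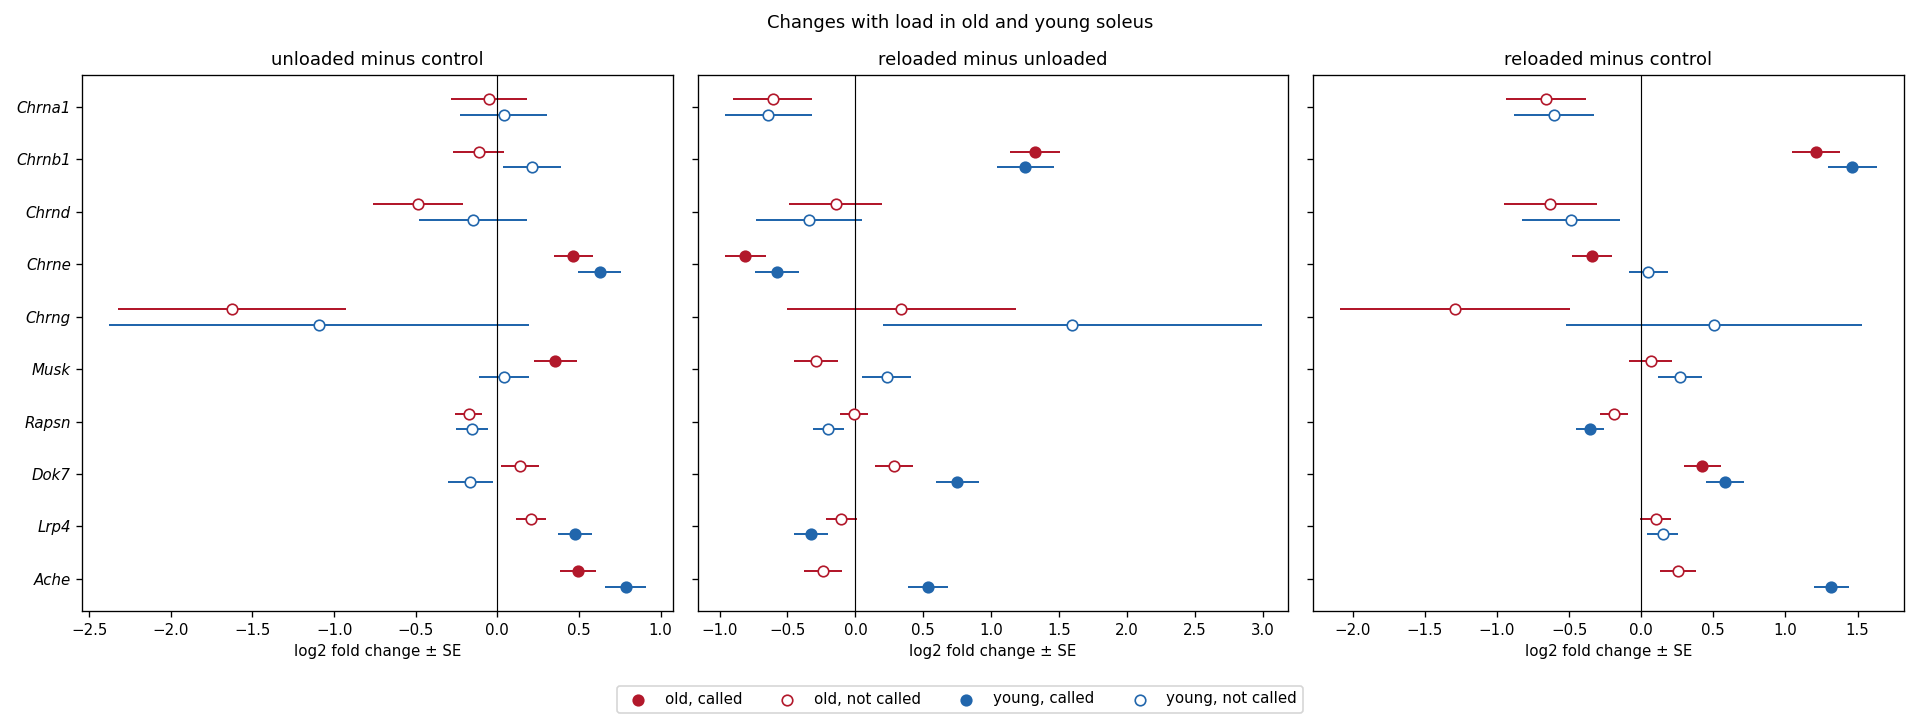
Log2 fold change with its SE of the 10 genes in old (red) and young (blue) soleus for unloaded against control, reloaded against unloaded and reloaded against control muscle; filled points were called at an adjusted p under 0.05 by edgeR. Chrnb1 is filled in both reloading panels at both ages, and Chrne lies right of 0 after unloading and left of 0 on reloading.

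Over 3 days of reloading Chrnb1 rose and Chrne fell at both ages relative to unloaded muscle, while in young muscle Dok7 and Ache also rose and Lrp4 fell. In old muscle 2 of 10 genes were called, against 51.3% of all genes tested (27.8% higher and 23.5% lower), and in young muscle 5 of 10, against 47.9% (26.4% higher and 21.5% lower). The median log2 fold change of the 10 genes was -0.13 in old and 0.01 in young muscle, and 0.03 and 0.06 for all genes.

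Chrnb1 had 52.0, 50.8, 59.5 and 58.3 CPM in the 4 reloaded old mice, against 17.0 to 29.0 CPM with a median of 21.2 CPM in the unloaded old mice. In young muscle it had 41.9, 40.9, 39.3 and 42.7 CPM after reloading, against 15.8, 18.0, 19.2 and 16.3 CPM after unloading. Every reloaded mouse lay above every unloaded mouse of its age. The log2 fold changes were 1.32 ± 0.19 in old (adjusted p = 3.95e-07) and 1.25 ± 0.21 in young muscle (adjusted p = 9.25e-06), both by edgeR, and both calls held in all alternatives run.

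Chrna1 and Chrnd, which encode subunits of the same receptor, did not show this rise. The log2 fold change of Chrna1 was -0.61 ± 0.29 in old (adjusted p = 0.0806) and -0.64 ± 0.32 in young muscle (adjusted p = 0.0968), with all 4 reloaded young mice, at 19.4 to 26.5 CPM, below all 4 unloaded ones, at 31.4 to 49.1 CPM. Leaving out unloaded old mouse 1 made the old value a call (-0.72, adjusted p = 0.0400), and with only the compared groups in the fit the young value was called (-0.68, adjusted p = 0.00439). Chrnd had log2 fold changes of -0.15 ± 0.34 in old and -0.34 ± 0.39 in young muscle, neither of which was called. Chrng was not called at either age. All 4 reloaded young mice, at 0.27 to 0.73 CPM of Chrng, lay above all 4 unloaded ones, at 0.08 to 0.21 CPM.

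Chrne had 2.68, 4.39, 5.06 and 4.53 CPM in the reloaded old mice, all below the lowest unloaded old mouse at 6.08 CPM, for a log2 fold change of -0.81 ± 0.15 (adjusted p = 2.99e-05). In reloaded young mice it had 3.57, 7.16, 3.58 and 4.83 CPM, of which 3 lay below all unloaded young mice and 1, mouse 2, within their range. The young change was -0.58 ± 0.16 (adjusted p = 0.00319).

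Dok7 had 13.5, 17.4, 13.2 and 14.5 CPM in reloaded young mice, against 7.37, 9.43, 8.86 and 9.17 CPM in unloaded young mice. The groups did not overlap, and Dok7 rose by 0.75 ± 0.16 (adjusted p = 0.000219, edgeR). In old muscle Dok7 averaged 16.9 ± 2.27 CPM after reloading (n = 4) and 13.8 ± 2.81 CPM after unloading (n = 6), a log2 fold change of 0.29 ± 0.14 that was not called (adjusted p = 0.0895). Musk was not called in old muscle, although all reloaded mice, at 87.6 to 100.1 CPM, lay below all unloaded ones, at 103.7 to 154.5 CPM. Lrp4 fell by 0.33 ± 0.13 on the log2 scale in young muscle (adjusted p = 0.0313), where reloaded mouse 2, at 66.5 CPM, stood above the other 3, at 41.1 to 47.2 CPM. That call was lost when any 1 of reloaded mice 1, 3 and 4 or unloaded mice 2 and 4 was left out.

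Ache had 22.3, 29.1, 17.8 and 17.1 CPM in reloaded young mice, all above the unloaded young mice at 14.1 to 15.5 CPM. It rose by 0.53 ± 0.15 (adjusted p = 0.00331, edgeR), and by 0.23 ± 0.16 (adjusted p = 0.277) without the libraries with Alb above 20 CPM, which leaves reloaded mice 3 and 4. In reloaded old mice Ache had 11.3, 10.2, 12.5 and 14.9 CPM, of which 3 lay below all unloaded old mice. The log2 fold change of -0.24 ± 0.14 was not called (adjusted p = 0.148), but was without reloaded old mouse 4 (-0.36, adjusted p = 0.0466).

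Of the 25 partner genes, 8 were higher and 6 lower on reloading in old muscle, where 27.8% of all genes were higher and 23.5% lower, and 11 were higher and 3 lower in young muscle, where 26.4% and 21.5% were. The medians were 0.12 and 0.21. The syntrophin gene Sntb1 rose by 1.51 ± 0.18 in old and 1.19 ± 0.20 in young muscle, Macf1 by 1.10 ± 0.11 and 1.25 ± 0.12, and Utrn, which encodes utrophin, a dystrophin relative held at the junction, by 0.49 ± 0.04 and 0.39 ± 0.05. Lama4 rose by 0.69 ± 0.08 in old muscle and Nid2, a nidogen of the basement membrane, by 0.94 ± 0.16 in young muscle. Markers of another cell type moved with reloading: of 6 macrophage markers 5 rose in old and 6 in young muscle, none at 0 reads, with a summed level of 163 to 274 CPM in reloaded and 105 to 155 CPM in unloaded old mice, and of 106 to 258 CPM and 82.1 to 117 CPM in the same states of young mice. Fibroblast markers moved as well, with 3 of 5 higher and 1 lower in old and 3 higher and 2 lower in young muscle, as did Uchl1, which rose by 0.88 ± 0.19 in old muscle. The part of these markers in the changes of the 10 genes was not tested.

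Of the 12 genes known to respond to loss of the nerve, 4 were higher and 2 lower on reloading in old muscle, and 5 higher and 2 lower in young muscle, beside the same shares of all genes, with a median of 0.39 at both ages. Dach2 fell by 0.84 ± 0.13 in old and 0.78 ± 0.14 in young muscle, and Myh3 rose by 2.95 ± 0.49 and 2.83 ± 0.57 at the same ages. In old muscle Ncam1 rose by 0.89 ± 0.22 and Hdac4 fell by 1.03 ± 0.28. In young muscle Hdac9 fell by 0.62 ± 0.17, which was not called without the libraries with Alb above 20 CPM (-0.53, adjusted p = 0.0592).

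Set against controls, reloaded muscle held more Chrnb1 and Dok7 at both ages, more Ache and less Rapsn in young muscle, and less Chrne in old muscle. In old muscle 3 of 10 genes were called, against 42.9% of all genes (21.8% higher and 21.1% lower), and in young muscle 4 of 10, against 49.6% (26.8% higher and 22.9% lower). The median of the 10 genes was -0.06 in old and 0.21 in young muscle, against 0.01 and 0.06 for all genes.

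Chrnb1 averaged 55.1 ± 4.38 CPM in reloaded old mice and 23.8 ± 9.08 CPM in old controls (SD, n = 4 and 9), and 41.2 ± 1.49 and 14.9 ± 2.09 CPM in the same states of young muscle (n = 4 and 9). The groups did not overlap at either age, with log2 fold changes of 1.21 ± 0.17 (adjusted p = 5.33e-07) and 1.46 ± 0.17 (adjusted p = 1.09e-08). Chrna1 was lower in all 4 reloaded young mice than in any young control, at 19.4 to 26.5 CPM against 28.4 to 47.1 CPM, yet its log2 fold change of -0.60 ± 0.28 was not called (adjusted p = 0.0701, edgeR). In old muscle the value was -0.66 ± 0.28 (adjusted p = 0.0512), and DESeq2 called it (adjusted p = 0.0446), as did leaving out any 1 of old controls 3, 6, 7, 8 and 9 or reloaded old mice 1 and 3. Chrne in old muscle fell by 0.34 ± 0.14 (adjusted p = 0.0455). That call was lost without any filter on low counts (adjusted p = 0.0501), and leaving out any 1 of old controls 1 to 5, 8 and 9 or reloaded old mice 1 and 2 also removed it, with the value -0.19 without reloaded mouse 1.

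Dok7 was 20.3, 15.8, 15.9 and 15.6 CPM in reloaded old mice, all above the 8.80 to 14.9 CPM of old controls, and rose by 0.42 ± 0.13 (adjusted p = 0.00856, edgeR). Without reloaded old mouse 1 the call was lost (0.32, adjusted p = 0.0801). In young muscle Dok7 rose by 0.58 ± 0.13 (adjusted p = 0.000401). Rapsn had 12.4, 15.6, 13.1 and 12.7 CPM in reloaded young mice, of which 3 lay below all young controls at 15.0 to 19.2 CPM, and fell by 0.36 ± 0.10 (adjusted p = 0.00277). In old muscle its log2 fold change was -0.19 ± 0.10 (adjusted p = 0.118). Musk was not called in young muscle, although all reloaded mice, at 73.4 to 84.6 CPM, lay above all controls, at 60.5 to 72.4 CPM.

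Ache in young muscle rose by 1.32 ± 0.12 (adjusted p = 1.04e-10, edgeR), with means of 21.5 ± 5.52 CPM after reloading and 8.63 ± 1.59 CPM in controls (SD, n = 4 and 9) and no overlap. In old muscle the means were 12.2 ± 2.02 and 10.2 ± 1.34 CPM (n = 4 and 9), a log2 fold change of 0.25 ± 0.13 that was not called (adjusted p = 0.106).

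Of the 25 partner genes, 6 were higher and 6 lower in reloaded than in control old muscle, where 21.8% of all genes were higher and 21.1% lower, and 11 were higher and 4 lower in young muscle, where 26.8% and 22.9% were. Sntb1 rose by 1.60 ± 0.16 in old and 1.51 ± 0.16 in young muscle and Utrn by 0.42 ± 0.04 and 0.37 ± 0.04. In old muscle Colq fell by 2.11 ± 0.25 and Bche, which encodes butyrylcholinesterase, rose by 0.88 ± 0.11. In young muscle Macf1 rose by 0.92 ± 0.10 and Nid2 by 1.09 ± 0.13. All 6 macrophage markers rose at both ages, and of the 8 Schwann cell markers 1 rose and 1 fell in old muscle, while 5 rose and 0 fell in young muscle. Of the motor axon markers, Uchl1 rose by 0.64 ± 0.17 and Prph by 0.84 ± 0.22 in old muscle, and Uchl1 fell by 0.57 ± 0.19 in young muscle. Without the libraries with Alb above 20 CPM Prph (0.67, adjusted p = 0.0725) and Uchl1 in young muscle (-0.45, adjusted p = 0.114) were not called. Prph was also not called for its most abundant transcript alone.

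Between the ages after unloading, Musk and Dok7 were higher in old muscle, 2 of 10 genes against 9.81% of all genes (4.64% higher and 5.16% lower). Musk had 154.5, 107.8, 111.6, 116.2, 103.7 and 108.9 CPM in unloaded old mice, against 52.8, 64.4, 72.2 and 80.9 CPM in unloaded young mice. The groups did not overlap, for a log2 fold change of 0.79 ± 0.17 (adjusted p = 0.00227, edgeR). For its most abundant transcript alone the log2 fold change was 0.56 ± 0.25 (adjusted p = 0.179). Dok7 had 16.5, 12.2, 11.6, 17.7, 10.7 and 14.4 CPM in unloaded old mice, all above the unloaded young mice at 7.37 to 9.43 CPM, and a log2 fold change of 0.67 ± 0.15 (adjusted p = 0.00349). Chrng also separated, at 0.282 to 2.34 CPM in old and 0.0801 to 0.209 CPM in young unloaded mice. Its log2 fold change of 3.11 ± 1.19 was not called (adjusted p = 0.0909), whereas DESeq2 called it (adjusted p = 0.0152). Of the 25 partner genes 1 was higher and 1 lower in old unloaded muscle: Erbb4 rose by 0.64 ± 0.19, a call lost without any 1 of unloaded young mice 1, 2 and 4 or unloaded old mouse 6, and Lama4 fell by 0.50 ± 0.08. Of the 12 genes known to respond to loss of the nerve, 1 was higher and 0 lower: Ncam1, by 0.76 ± 0.23. Its call was lost without the libraries with Alb above 20 CPM (0.56, adjusted p = 0.206) and without any 1 of unloaded young mice 1, 2 and 3 or unloaded old mice 2, 4 and 6. Uchl1 rose by 0.97 ± 0.20, and 3 of the 5 fibroblast and 3 of the 4 endothelial markers were lower in old unloaded muscle.

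After reloading, 1 of the 10 genes differed between the ages, against 19.7% of all genes (10% higher and 9.67% lower): Ache was lower in old muscle. It had 11.3, 10.2, 12.5 and 14.9 CPM in reloaded old mice, all below the 22.3, 29.1, 17.8 and 17.1 CPM of reloaded young mice. The log2 fold change was -0.82 ± 0.15 (adjusted p = 0.000384, edgeR), and -0.55 ± 0.18 (adjusted p = 0.0711) without the libraries with Alb above 20 CPM, with 2 mice left in each group. Chrnb1 and Musk were not called, although all reloaded old mice lay above all reloaded young ones. Chrnb1 had 50.8 to 59.5 CPM in old and 39.3 to 42.7 CPM in young mice, and Musk 87.6 to 100.1 and 73.4 to 84.6 CPM. The share of all genes without overlap was not counted. Lrp4 was called higher in old muscle without reloaded young mouse 2 (0.47, adjusted p = 0.0102). Liver genes differed between the same groups: all 6 liver markers were higher in reloaded old muscle, with a summed level of 0.558 to 2458 CPM, against 1.67 to 108 CPM in reloaded young muscle, and their part in the value was not tested. Of the Schwann cell markers, 3 of 8 were lower in old reloaded muscle, and their summed levels were 70.1 to 91.2 CPM in old and 78.6 to 109 CPM in young reloaded mice. Among them were the myelin gene Prx (-0.51 ± 0.18) and the factor gene Egr2 (-0.88 ± 0.31); without reloaded young mouse 2 Prx (-0.29, adjusted p = 0.281) was not called, and the call of Egr2 was lost without any 1 of several mice. Neither was called without the libraries with Alb above 20 CPM (Prx -0.42, adjusted p = 0.283; Egr2 -0.73, adjusted p = 0.366). Uchl1 rose by 1.81 ± 0.22 in old reloaded muscle, 5 of 8 muscle fibre markers were higher and 0 lower, and 2 of 4 endothelial markers were lower; the part of these markers in the value of Ache was not tested.

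Of the 25 partner genes, 0 were higher and 6 lower in old reloaded muscle, where 10% of all genes were higher and 9.67% lower. Nid2 fell by 1.08 ± 0.16, the laminin gene Lama5 by 0.71 ± 0.14, Sntb2 by 0.39 ± 0.09 and Gabpb1 by 0.33 ± 0.09. With only the reloaded groups in the fit Lama5, Sntb2 and Gabpb1 were not called (adjusted p = 0.0841, 0.0520 and 0.0837), and without the libraries with Alb above 20 CPM Sntb2 and Gabpb1 were not. Of the 12 genes known to respond to loss of the nerve, 2 were higher and 0 lower: Ncam1, a neural adhesion molecule, rose by 1.03 ± 0.24 and Myh3, embryonic myosin, by 1.53 ± 0.54. Neither was called without those libraries (Ncam1 1.11, adjusted p = 0.0602; Myh3 1.13, adjusted p = 0.424), and Myh3 was not without any 1 of reloaded young mice 2 and 3 or reloaded old mice 2, 3 and 4.

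The responses themselves were then compared between the ages. The response to unloading differed for 0 of the 10 genes and for 0% of all genes by edgeR. At an unadjusted p under 0.05 the count among the 10 was also 0, against 1487 of the 15031 genes tested. DESeq2 called 0 of the 10, and its shares of all genes are not reported here. The response to reloading after unloading differed for 0 of 10, against 0.778% of all genes (0.492% higher and 0.286% lower). An unadjusted p under 0.05 was reached by 3 of the 10 genes and by 2484 of the 15031 tested. DESeq2 called 1 of the 10. That gene was Ache, with a difference of -0.77 on the log2 scale (adjusted p = 0.0585 by edgeR and 0.0200 by DESeq2); without reloaded young mouse 4 edgeR called it too (-0.86, adjusted p = 0.0346).

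For reloaded against control muscle the response of Ache differed between the ages, 1 of 10 genes against 4.82% of all genes (2.32% higher and 2.49% lower). The response was 0.25 ± 0.13 in old and 1.32 ± 0.12 in young muscle, and the difference of these log2 fold changes was -1.07 ± 0.18 (adjusted p = 0.00189, edgeR). Without the libraries with Alb above 20 CPM it was -0.80 ± 0.20 (adjusted p = 0.0514). Of the 25 partner genes 3 had lower responses in old muscle and 0 higher ones, with differences of -0.80 ± 0.17 for Lama5, -0.80 ± 0.19 for Nid2 and -0.49 ± 0.14 for Erbb2, a neuregulin receptor (adjusted p = 0.0429). Without those libraries none of the 3 was called, and without reloaded young mouse 2 Nid2 (-0.70, adjusted p = 0.0512) and Erbb2 (-0.31, adjusted p = 0.180) were not. The call of Erbb2 was also lost without a filter on low counts, with only the groups compared and without several single mice. The next by p, Gabpb1, which encodes a subunit of an ETS factor complex, had -0.35 ± 0.11 (adjusted p = 0.0516), and DESeq2 called it (adjusted p = 0.0433). Among Schwann cell markers Egr2 had a lower response in old muscle (-1.24 ± 0.37, adjusted p = 0.0461), and it was not called without the libraries with Alb above 20 CPM or without several single mice. Uchl1 had a higher response in old muscle (1.21 ± 0.26, adjusted p = 0.00901), which was not called without those libraries (1.18, adjusted p = 0.0514).

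Across the 36 libraries, with group means subtracted, the neighbouring genes Chrnd and Chrng had a Pearson r of 0.84 of log2 CPM, and 0.66 over the 27 libraries other than the old controls. Chrna1 followed both, at r = 0.78 with Chrnd and 0.75 with Chrng. Chrne did not follow them, at r = 0.18 with Chrnd and -0.07 with Chrng. These correlations describe libraries that share their scaling and the 9 old controls, and of Chrnb1 and Musk r was 0.71 over 36 libraries and 0.06 without the old controls. Predicted genes, named Gm with digits or ending in Rik, were left out of the rankings that follow. Among the other tested genes, those most like Chrna1 were Tnnt2, Gdf5 and Gprc5c (r = 0.83, 0.82 and 0.82). Without old controls 5 and 1, the libraries farthest from the median, r was 0.81, 0.70 and 0.73. Chrng was most like Ttll12, Chrnd and Mycl (r = 0.84, 0.84 and 0.83), and Chrne most like Ttc7b, Prdm2 and Actn2 (r = 0.78, 0.77 and 0.75). Chrnb1 was most like Dapk2, Atp13a3 and Rin1 (r = 0.85, 0.84 and 0.84), and Chrnd, after Chrng, like Ric8a and Nxn (r = 0.82 for both). For Musk the closest were Arl4d, Nhp2 and Tmem189 (r = 0.79, 0.78 and 0.75) and for Ache Nedd4l, Casz1 and Llgl1 (r = 0.74, 0.74 and 0.73). For Rapsn they were Tdrkh, Mri1 and Smad3 (r = 0.74, 0.72 and 0.72), for Dok7 Stk38, Greb1 and Osbpl11 (r = 0.65, 0.64 and 0.63) and for Lrp4 Mfsd7c, Klc2 and Endov (r = 0.71, 0.67 and 0.66). The mean of the 10 standardised genes was most like Nxn with group means subtracted (r = 0.86, and 0.83 without old control 5 and young reloading mouse 2) and like Dapk2 as measured (r = 0.90, and 0.87 without old controls 5 and 1).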

How the data were processed

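Total RNA of soleus from 36 mice in 6 groups was sequenced as single reads of 50 bases. The deposited table holds 31668 transcripts and gives reads and RPKM side by side, per the file headers. The authors' reads are expected counts, split between transcripts of the same gene: 55.7% of transcript values were whole (tolerance 0.01 reads), and 94.9% of the sums per gene. Musk has 6 transcripts, Lrp4 2 and Ache 2. The RPKM columns, deposited by the authors, are reads per kilobase and per M reads, and were used to set genes beside each other by length and in 1 alternative. Tools listed in the submitters' processing notes, with no role or order, are DESeq, Partek 6.6, TopHat and TopHat2 2.0.1, with the mm10 build. Date-like symbols in 56 rows of the spreadsheet were restored to gene symbols by transcript.

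Counts were summed per gene, rounded, filtered with filterByExpr (15031 genes), scaled with TMM and fitted in 1 model with a coefficient per group by the quasi-likelihood test of edgeR 4.0.16 (R 4.3.3, limma 3.58.1; common biological coefficient of variation 0.149, 30 residual degrees of freedom). There were 12 comparisons, 3 of them age differences in a response, with Benjamini-Hochberg adjustment over the genes tested in each, at 0.05. Values after ± are SE for fold changes. The fit was tested on simulated data. Within groups 105 pairs of libraries were compared, and none was a duplicate (lowest chi-square per degree of freedom 8.46). Libraries of the same mouse number were not treated as pairs. Each library is a separate mouse, per the labels.

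The genes and lists were chosen with earlier results of these data known. Named genes were the 10 genes, up to 4 members of a list by smallest p in a comparison, and the 3 most correlated genes of each; Myog and Chat, and Uchl1 and Prph as markers, were named after their values were seen. Some list members are not reported here. Alternatives were DESeq2 1.42.0, no filter or 5 CPM in at least 4 libraries, only the groups compared, a block of mouse numbers, the transcript with the highest mean, leaving out the 6 libraries with Alb above 20 CPM, controls 1 to 6 only, 5 in place of 0.5 reads added in the ratio, log2 RPKM with 0.01 added for the spread, and each library left out. The satellite cell list had 0 to 2 of 4 members called per comparison and the adipocyte list 0 of 4.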

Additional observations from a re-analysis of the deposited data

Results flagged for a closer look

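In 8 cases a single mouse stood apart from its group by Dixon's test on CPM without logs, among 60 combinations of gene and group. For normally distributed values chance alone marks about 1 in 20, or 3 of 60. Values on this scale need not be so distributed, as for Chrng in old controls, so the 8 cannot be weighed against the 3. The test was not run on log2 CPM. For Chrng old control 5 had 18.1 CPM, and the other old controls 0.117 to 5.47 CPM. The same mouse stood apart for Musk, at 158.4 CPM beside 65.8 to 111.3 CPM, and for Lrp4, at 77.6 CPM beside 48.9 to 62.4 CPM. For Musk unloaded old mouse 1 had 154.5 CPM, and the other unloaded old mice 103.7 to 116.2 CPM. Reloaded old mouse 1 stood apart for Rapsn, at 16.8 CPM beside 13.5 to 14.1 CPM, and for Dok7, at 20.3 CPM beside 15.6 to 15.9 CPM. For Dok7 old control 3 was low, at 8.80 CPM beside 11.9 to 14.9 CPM, and young control 3 was high, at 14.0 CPM beside 8.06 to 11.1 CPM.

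The response of Ache in reloaded against control muscle differed between the ages by -1.07 on the log2 scale, by the edgeR test of the difference itself. That call was lost without the libraries with Alb above 20 CPM.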

How the results depend on the processing

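Of 31 called values of the 10 genes, 21 kept their call under all alternatives run, 10 lost it under at least 1, and 0 changed direction. The share of all genes called under each alternative is not given, so a change in the counts that follow is no result about the 10 genes. With only the groups compared in the fit, the number of the 10 genes called was 4 for reloading after unloading in old muscle, 7 for reloaded against control in young muscle, 4 for old against young unloaded and 2 for old against young reloaded muscle. With controls 1 to 6 it was 5 for reloaded against control in old muscle and 2 for old against young reloaded muscle; with the most abundant transcript it was 1 for old against young unloaded muscle. Without the libraries with Alb above 20 CPM it was 0 for old against young reloaded muscle and 0 for the age difference of reloaded against control. For the age difference in reloading after unloading, DESeq2 and the stricter filter each called 1. Mouse numbers did not pair libraries: same-numbered pairs had a median correlation of 0.00597 (from -0.417 to 0.437, 69 pairs), and 25 of 138 best matches were the own number. With the replicate block 2 genes were called for old against young reloaded muscle. In old muscle the block ended the calls of Musk after unloading (0.29, adjusted p = 0.0762) and of Chrne and Dok7 in reloaded against control muscle (-0.36, adjusted p = 0.0573; 0.31, adjusted p = 0.0989). It made calls of Chrng (-1.72, adjusted p = 0.0159) and Rapsn (-0.22, adjusted p = 0.0451) after unloading in old muscle, of Chrna1 in reloaded against unloaded old muscle (-0.63), of Chrna1 (-0.77) and Chrng (-1.64) in reloaded against control old muscle, of Chrna1 in reloaded against control young muscle (-0.79), of Chrng in old against young unloaded muscle (3.33) and of Lrp4 in old against young reloaded muscle (0.32). Of the list members named, Hdac4, Prph and Ncam1 after unloading and Egr2 and Erbb2 after reloading lost a call with it. Leaving out each library gave 1 to 2 genes for old against young reloaded muscle (2 without reloaded young mouse 2), 0 to 1 for the age difference in reloading after unloading (1 without reloaded young mouse 4) and 0 to 4 for the spread among controls. The log2 ratio of Chrng to Chrne in reloaded against control old muscle, 0.18, was -1.21 with controls 1 to 6 (adjusted p = 0.321) and ran from -0.41 to 0.88 with each library left out, below 0 without old control 7, 8 or 9 or reloaded old mouse 1 or 3. The cause of these shifts was not tested. Chrng, with as few as 3 reads in a library, is the gene whose values depth limits most, and groups of 4 mice limit the reloading comparisons.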
